A study of Mus musculus with 12 samples.

Results

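The response of wild-type (WT) mouse liver to a high-fat diet was described from 6 of the 12 liver libraries of the study, chosen by genotype and diet in the sample labels. The 3 WT ND libraries came from mice kept on a normal diet (ND), and the 3 WT HFD libraries from mice moved at 8 weeks of age to a high-fat diet (HFD) for 12 weeks. The other 6 libraries came from mice lacking NLRP6 (knockout, KO), 3 on each diet, and serve below for the shared estimate of spread and for comparison. An age of 8 weeks at diet start is recorded for all groups, ND and KO included. No age at sampling is recorded, so whether it differed between diets is not known. WT mice carry no named allele or transgene in the labels, which give neither sex, strain, diet composition nor whether each library is 1 animal, so each p-value is relative to the variation among these libraries only, and that variation could be technical. The study asked what NLRP6, a sensor protein of the inflammasome family, does in the build-up of lipid droplets in hepatocytes, and the WT diet contrast is the response against which the knockout is read.

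In the liver, dietary fat reaches hepatocytes as lipoprotein remnants and free fatty acids, which are oxidised, exported as lipoprotein or stored as triglyceride in lipid droplets. Prolonged high-fat feeding is widely used in mice to produce fatty liver, and it is known to alter genes of fatty acid oxidation, lipid storage and sterol synthesis. Hepatocytes dominate liver RNA, with a few secreted-protein genes taking a large part of all transcripts. The tissue also holds macrophages, endothelial, stellate and bile duct cells, and in such bulk samples fewer cells of a type and less RNA per cell cannot be told apart.

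Genes were identified in the count table only by IDs of a C57BL/6NJ strain annotation, and 1458 of 42554 rows were unannotated loci. The gene tables used here matched 0 of these IDs to a symbol. Neither the liver identity of the libraries nor the loss of NLRP6 in KO was therefore checked against its genes, gene functions are not given, and pathways and other cell types were not analysed here. Of all rows, 13843 had enough counts to be tested, 13291 annotated genes and 552 unannotated loci, all called genes below. Libraries held 14072878 to 15131904 counts on ND and 13718565 to 14567568 on HFD (exact permutation test, two-sided, p = 0.3).

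WT liver on HFD put more of its reads on fewer genes. The 10 most abundant genes of each library held 15.01% to 16.7% of the counts on ND and 22.4% to 23.6% on HFD, with means of 15.9% ± 0.853 and 22.9% ± 0.638 (SD, n = 3 each). The 100 most abundant held 37.9% ± 0.639 on ND and 44.96% ± 0.707 on HFD, and the 1000 most abundant held 68.1% ± 0.621 and 73.8% ± 0.453. Every HFD library lay above every ND library in all 3 measures. Counted from the other side, 256 to 284 genes were needed to reach 50% of the counts on ND and 148 to 166 on HFD. To reach 90%, 4096 to 4258 genes were needed on ND and 3422 to 3473 on HFD.

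Fewer rows were seen at all on HFD. Rows with at least 1 count numbered 18369, 18304 and 18105 in WT ND replicates 1 to 3, and 17903, 17269 and 17881 in WT HFD replicates 1 to 3. With all libraries thinned at random to 13339879 counts, the means were 18136 ± 92.7 on ND and 17619 ± 407 on HFD (SD, n = 3 each) and the groups still did not overlap, with 18032 to 18210 rows on ND and 17150 to 17867 on HFD. WT HFD replicate 2 was the lowest, and without it the mean difference in the unthinned libraries went from -575 to -367 rows. Thinning evens the total only: the 10 most abundant genes still held 15.9% of thinned counts on ND and 22.9% on HFD. Fewer reads were thus left for other rows on HFD, and the part of this in the difference was not tested. Across the 6 libraries 22168 rows had a count. Of these, 1950 were seen only on ND and 1432 only on HFD, both with a median of 2 counts in total, which is under the floor of 3 counts that a count of 0 allows in 1 library.

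All 8 of these library measures, with the share of the single most abundant gene and of unannotated loci included, gave an exact permutation p = 0.1 (two-sided, n = 3 each; Benjamini-Hochberg adjusted 0.1). This is the smallest p that 3 against 3 allows. With the 10 genes that had most counts over all libraries taken out, the difference in the share of the next 10 shrank from 7.05 to 0.576 percentage points (exact permutation p = 0.4), and that in the share of the next 100 from 7.07 to 2.53 percentage points (exact permutation p = 0.1).

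**Figure D1:**
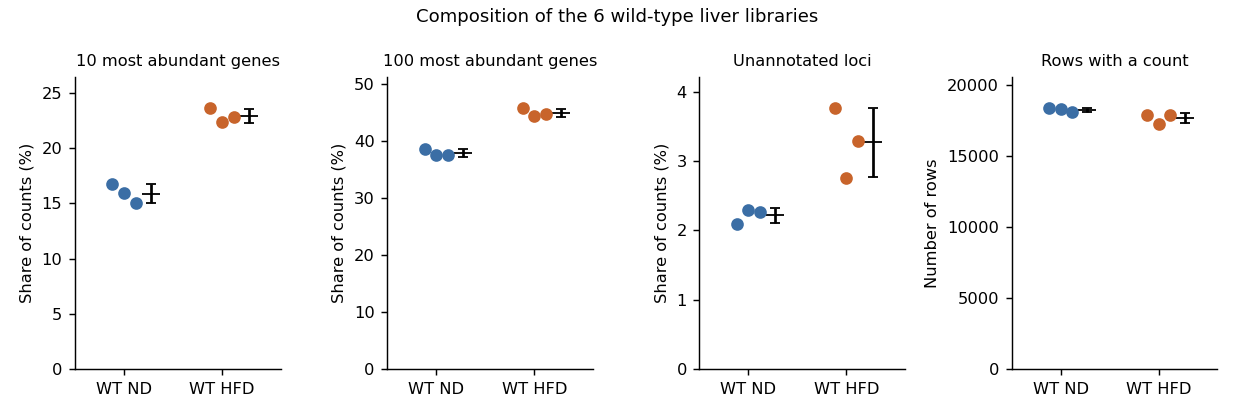
Share of counts (%) held by the 10 and by the 100 most abundant genes of each library and by unannotated loci, and the number of rows with at least 1 count, for 3 WT ND (blue) and 3 WT HFD (orange) libraries, with the group mean and SD beside the points. The 10 most abundant genes hold 15.01% to 16.7% on ND and 22.4% to 23.6% on HFD, and rows with a count fall from 18105 to 18369 on ND to 17269 to 17903 on HFD.

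The set of leading genes was only partly the same on both diets. Of the 10 genes with the largest mean share on ND, 5 were among the 10 largest on HFD. Of the 100 largest on ND, 82 were among the 100 largest on HFD, and of the 1000 largest, 813. The 100 leading genes of ND kept a large share: they held 37.7% ± 0.704 of the counts on ND and 44.0% ± 0.337 on HFD (SD, n = 3 each). Of those 100, 32 rose and 15 fell by the test described next, and 9 of the 10 leading genes of HFD rose, but leading genes of HFD were picked from the same libraries and favour genes that rose.

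Gene by gene, 2704 genes rose (19.5% of those tested) and 2972 fell (21.5%), 5676 in all (41.0%), at a Benjamini-Hochberg adjusted p under 0.05 in the quasi-likelihood test of edgeR on counts scaled by TMM (trimmed mean of M-values, which sets the bulk of genes to no change). Over all called genes on this scale, the median fall was larger than the median rise. Called falls lay at lower abundance than called rises, where called changes were larger (values below). The median size of a rise was a log2 fold change of 0.84, with quartiles of 0.59 and 1.21, and that of a fall was 0.96, with quartiles of 0.66 and 1.496. Among changes under 1.5-fold, 653 genes rose and 556 fell. From 2- to 4-fold, 872 rose and 1030 fell. From 4- to 8-fold, 144 rose and 300 fell, and at 8-fold or more 31 rose and 106 fell. Genes with no count in 1 diet numbered 2 of the rises and 5 of the falls. With these set to their bound from 3 counts per library, the median fall stayed at 0.96 and falls of at least 4-fold numbered 403 in place of 406.

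The split into rises and falls depended on how libraries were scaled. The TMM factors were 1.07 to 1.13 in WT ND and 0.888 to 0.902 in WT HFD. Scaled to total counts alone, the median log2 fold change of all genes went from -0.03 to -0.32, a shift of -0.29, and 1495 genes rose while 4920 fell. Rises were then 23.3% of the calls, against 47.6% with TMM. With RLE (the median-ratio scaling of DESeq2) they were 49.6%, and with upper-quartile scaling 50.3%. Of the 5676 genes called with TMM, 4467 were called in the same direction on total counts. Large changes leaned towards falls under all 4 scalings: changes of at least 4-fold were 175 up and 406 down with TMM, 183 and 387 with RLE, 187 and 382 with upper quartile, and 109 and 600 on total counts. The files hold no measure of RNA per cell, so whether most genes held their level or lost some cannot be told apart. All changes below are relative to the TMM scale.

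**Figure D2:**
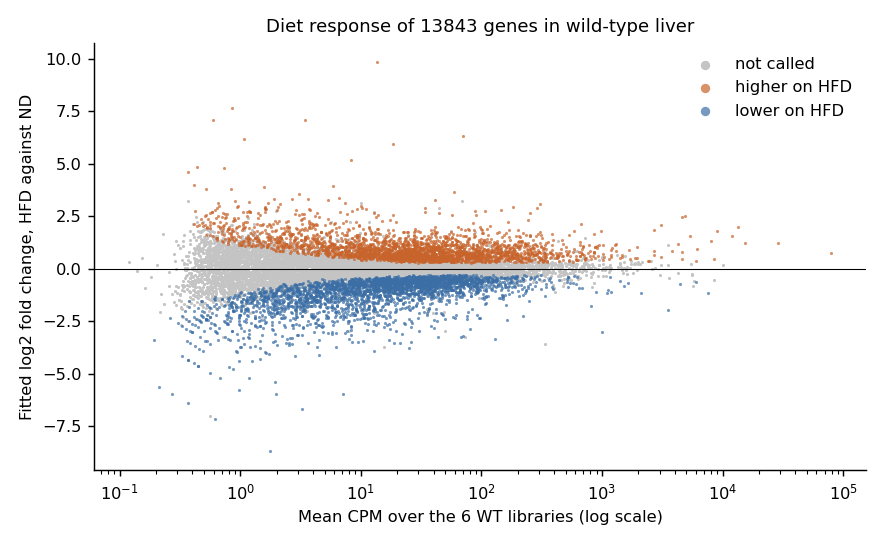
Fitted log2 fold change, HFD against ND in WT (vertical), against mean CPM over the 6 WT libraries (horizontal, log scale), for all 13843 genes tested, with genes called higher on HFD in orange, lower in blue and not called in grey. Called genes at the right, over 1000 CPM, lie mostly above 0, while the deepest falls lie at low CPM, where a fitted fold change rests on few counts.

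With TMM, rises outnumbered falls among called genes over 100 CPM, and falls outnumbered rises under 10 CPM. Abundance was taken as mean CPM (a gene's counts per megacount of the TMM-scaled library) over the 6 WT libraries, which is not corrected for gene length and so gives a gene's share of reads. Over 1000 CPM, 44 of 114 genes rose and 13 fell. From 100 to 1000 CPM, 469 of 1351 rose and 187 fell. From 10 to 100 CPM the directions were nearly even, with 1454 rises and 1570 falls among 6411 genes. From 1 to 10 CPM, 635 of 4569 genes rose and 1051 fell, and under 1 CPM 102 of 1398 rose and 151 fell. The median gene that rose had 26.9 CPM, and the median gene that fell 14.9 CPM, where the median over all genes tested was 14.01 CPM.

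These counts depended on scaling. On total counts, 25 genes rose and 21 fell over 1000 CPM, and 286 rose and 417 fell from 100 to 1000 CPM, so in the latter class the balance turned. Relative to the median of all genes, which a common shift leaves as it is, the median log2 fold change was 0.26 over 1000 CPM, 0.19 from 100 to 1000 CPM and -0.07 from 1 to 10 CPM. The power of the test also differed, since the median standard error of the log2 fold change was 0.61 under 1 CPM and 0.32 from 1 to 10 CPM, against 0.16 from 10 to 100 CPM, 0.15 from 100 to 1000 CPM and 0.19 over 1000 CPM. Called genes had a median absolute log2 fold change of 2.22 under 1 CPM, 1.28 from 1 to 10 CPM and 0.73 from 10 to 100 CPM. The part of this in the larger median fall was not tested. Most large changes lay in genes of low abundance. Of the 406 falls of at least 4-fold, 104 were under 1 CPM and 212 from 1 to 10 CPM, and of the 175 rises of that size 52 and 86. From 10 to 100 CPM, 86 genes fell and 24 rose by at least 4-fold. Over 100 CPM the lean turned with TMM, with 10 rises and 3 falls from 100 to 1000 CPM, and 3 and 1 over 1000 CPM.

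**Figure D3:**
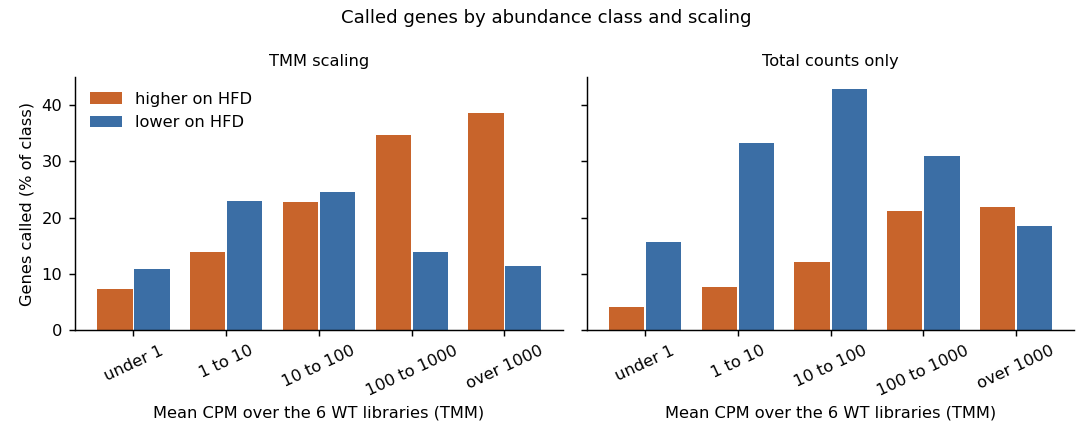
Share of genes (%) called higher (orange) and lower (blue) on HFD in WT in 5 classes of mean CPM, with TMM scaling (left) and total counts only (right), the classes being the same in both. With TMM, 34.7% rose and 13.8% fell from 100 to 1000 CPM, while on total counts 21.2% rose and 30.9% fell in that class.

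Gains were concentrated in few genes and losses spread over many. On the plain scale of a gene's share of all counts, with no scaling factor, 20.1% of the library moved from genes that lost share to genes that gained it between the means of ND and HFD. The 10 largest gains made up 51.0% of the total gain, and 10 genes sufficed for 50% of it. The 10 largest losses made up 19.0% of the total loss, and 50% of it took 250 genes. Leaving out any 1 of the 6 WT libraries gave 10 to 11 genes for the gain and 230 to 271 for the loss, with 19.0% to 21.6% of the library moved. In the KO libraries, a like amount moved between diets, 20.2%, with 28 genes for 50% of the gain and 182 for 50% of the loss. The difference from WT was not tested.

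Of the genes named by ID, 1 was chosen in each direction for the largest fold change among annotated genes averaging 10 CPM or more, and 1 for the largest difference in CPM. All had to be called with WT groups that did not overlap. MGP_C57BL6NJ_G0017861 was the largest rise by fold. It had 0, 0 and 1 count in WT ND replicates 1 to 3, and 384, 345 and 296 counts in WT HFD replicates 1 to 3. It was at or under the floor of 3 counts in each ND library and well above it in each HFD library. The ratio of HFD to ND was 1296-fold, and the exact binomial limits of 95% confidence were 232 and 51230, which cover counting error only (edgeR adjusted p = 6.76e-08). The fitted log2 fold change of 9.84 went to 11.61 without WT ND replicate 3, the ND library with the 1 count, and was 9.22 to 11.61 over all 19 alternatives, each of which kept the call. On HFD it made up 27.3 ± 3.82 CPM (SD, n = 3), so even this change was a small part of the library.

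MGP_C57BL6NJ_G0030151 was the largest rise by CPM and the gene with most counts in the table. Its level was 71230, 58638 and 47549 CPM in WT ND replicates 1 to 3, and 93835, 105109 and 101680 CPM in WT HFD replicates 1 to 3. All HFD libraries were above all ND libraries, and ND replicate 3 was the lowest. Its share of all counts went from 6.47% ± 1.24 to 8.97% ± 0.576 (SD, n = 3 each). The log2 fold change was 0.76 (SE 0.23, edgeR adjusted p = 0.0173). The call did not hold under 3 of 18 alternatives. On total counts the log2 fold change was 0.47 (edgeR adjusted p = 0.0658), without WT ND replicate 3 it was 0.62 (edgeR adjusted p = 0.0788), and without WT HFD replicate 3 it was 0.75 (edgeR adjusted p = 0.0507).

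MGP_C57BL6NJ_G0026941 was the largest fall by fold. It had 341, 393 and 421 counts in WT ND replicates 1 to 3, and 32, 6 and 21 in WT HFD replicates 1 to 3. The groups lay far apart, with HFD replicate 2 the lowest. Its mean went from 24.3 ± 3.27 CPM to 1.59 ± 1.08 CPM (SD, n = 3 each), a log2 fold change of -3.94 (SE 0.45, edgeR adjusted p = 8.8e-05). It stayed called under all 19 alternative settings and replicate omissions tried, with a log2 fold change of -4.50 to -3.49.

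MGP_C57BL6NJ_G0024364 was the largest fall by CPM. Its level was 8982, 9434 and 12899 CPM in WT ND replicates 1 to 3, and 3700, 5531 and 4921 CPM in WT HFD replicates 1 to 3. ND replicate 3 was the highest and HFD replicate 1 the lowest, with a gap between the diets. The log2 fold change was -1.15 (SE 0.32, edgeR adjusted p = 0.0115). Without WT HFD replicate 1 it was -0.996 and just missed the threshold (edgeR adjusted p = 0.0508).

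The same 4 genes in KO gave a difference from the WT response by the interaction test for 1 of them only. MGP_C57BL6NJ_G0026941 fell in KO too, to 3.35 ± 1.70 CPM (SD, n = 3; log2 fold change -2.67, edgeR adjusted p = 0.00036). MGP_C57BL6NJ_G0030151 was at 47899 to 84900 CPM in KO HFD and 59908 to 70196 CPM in KO ND (log2 fold change -0.10, edgeR adjusted p = 0.754). MGP_C57BL6NJ_G0024364 was at 4787 to 14577 CPM in KO HFD and 8884 to 10438 CPM in KO ND (log2 fold change 0.08, edgeR adjusted p = 0.851). KO HFD replicate 1 stood apart in both, with 84900 CPM of the former, above every KO ND library, and 4787 CPM of the latter, below every KO ND library. KO HFD replicates 2 and 3 lay on the other side of the KO ND range, with 47899 and 52617 CPM of MGP_C57BL6NJ_G0030151, and 14577 and 10919 CPM of MGP_C57BL6NJ_G0024364. The adjusted p of the interaction was 0.205 for MGP_C57BL6NJ_G0030151, 0.188 for MGP_C57BL6NJ_G0024364 and 0.32 for MGP_C57BL6NJ_G0026941, so a difference between genotypes was not shown. MGP_C57BL6NJ_G0017861 rose in KO too, from 1, 0 and 2 counts in KO ND replicates 1 to 3 to 12, 10 and 14 in KO HFD replicates 1 to 3 (edgeR adjusted p = 0.000179). Its level in KO HFD was 0.923 ± 0.147 CPM (SD, n = 3), and its response differed from that in WT (interaction, edgeR adjusted p = 0.0401). All 4 genes were picked on their WT values, which favours a larger response in WT than in KO.

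**Figure D4:**
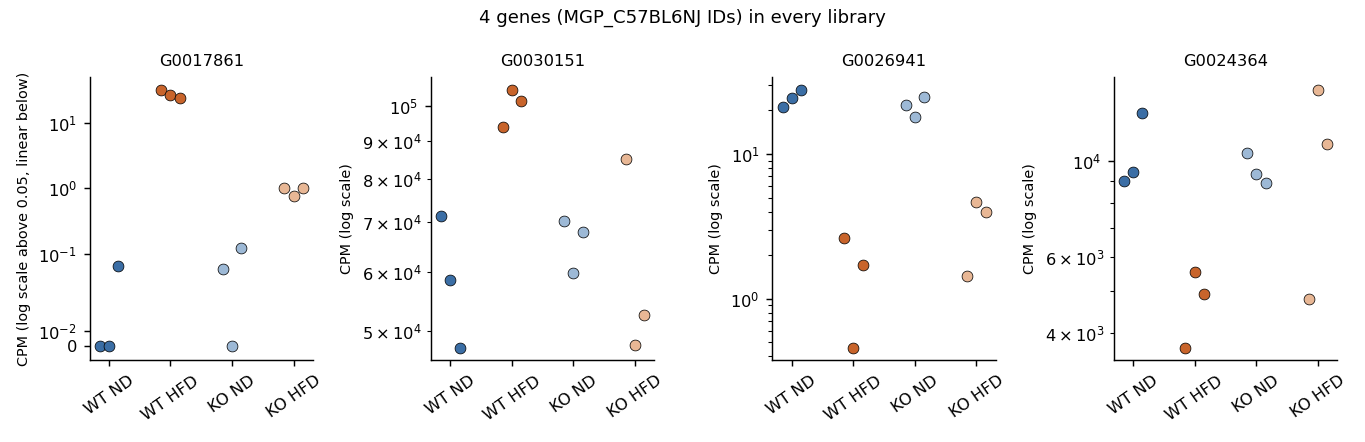
CPM of MGP_C57BL6NJ_G0017861, MGP_C57BL6NJ_G0030151, MGP_C57BL6NJ_G0026941 and MGP_C57BL6NJ_G0024364 in every library, by group (log scale; for the first gene linear below 0.05 CPM, to show libraries with 0). In WT the diets do not overlap for any of the 4, as the rule that chose them required. KO HFD libraries spread from 47899 to 84900 CPM for MGP_C57BL6NJ_G0030151 and from 4787 to 14577 CPM for MGP_C57BL6NJ_G0024364.

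Few genes were present on one diet and absent on the other. Of all rows, 2 had 0 counts in every WT ND library and at least 5 in every WT HFD library, with 44 and 65 counts over the 3 HFD libraries. In the other direction 9 rows had 0 counts in every WT HFD library and at least 5 in every ND library, with 21 to 166 counts in total. Of these, 2 and 3 rows were called by edgeR. Rows removed by the low-count filter were not tested, and their number among the 9 is not given here. In the KO libraries none of these 11 rows (0 of 2 and 0 of 9) met the same rule, though 2 of the 2 and 7 of the 9 had summed counts that differed in the same direction. At this depth a count of 0 does not show that a gene was silent.

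Unannotated loci leaned towards rises. Of the 552 tested, 181 rose and 36 fell (32.8% and 6.52%), against 2523 rises and 2936 falls among the 13291 annotated genes (19.0% and 22.1%). Their median log2 fold change was 0.64, against -0.05 for annotated genes. The lean held under all 4 scalings, with 122 rises and 56 falls on total counts. From 1 to 10 CPM, 34.9% of unannotated loci rose and 12.5% of annotated genes did, and from 10 to 100 CPM the shares were 42.1% and 22.4%. Under 1 CPM they were 19.1% and 6.02%. From 100 to 1000 CPM they lay close together, at 38.5% of 13 loci and 34.7%, and over 1000 CPM 3 of 4 loci and 37.3% of annotated genes rose. In the KO libraries 173 unannotated loci rose on HFD and 44 fell (31.3% and 7.97%), against 22.2% and 22.7% of annotated genes. Of these loci, 110 and 22 were also called in WT in that direction. Among annotated genes, 1749 of the 2956 KO rises and 1996 of the 3022 KO falls were also called so in WT. No source used here says from which libraries these loci were defined, and the part of that choice in the lean was not tested. Unannotated loci held 2.22% ± 0.109 of WT counts on ND and 3.27% ± 0.504 on HFD (SD, n = 3 each). Much of this was 1 locus: the largest held 45.7% of such counts on ND and 58.7% on HFD, and without the 10 most abundant genes the difference shrank from 1.05 to 0.312 percentage points.

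Libraries of the same diet were alike, but not equally so. Across the 13843 genes, Pearson correlations of log CPM, which describe libraries across genes that are not independent, were 0.973 to 0.985 within WT ND, 0.966 to 0.982 within WT HFD and 0.913 to 0.938 between diets. WT HFD replicate 1 was the farthest from ND. Its correlations with ND libraries were 0.913 to 0.922, and it was the most extreme HFD library for 59.6% of the genes that rose and 48.3% of those that fell. The corresponding shares were 25.4% and 31.7% for replicate 2 and 15.01% and 20.1% for replicate 3. Without it 4633 genes were called, and without each of the other 5 WT libraries 4380 to 5319. The median SD of log2 CPM within a group was 0.21 on ND and 0.22 on HFD, and 52.8% of genes had the larger SD on HFD. Over 1000 CPM, however, the median SD was 0.21 on ND and 0.10 on HFD, and only 24.6% of genes had the larger SD on HFD.

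Values of the 2 WT groups did not overlap for 7362 of the genes tested (53.2%), including 97.4% of the rises and 97.3% of the falls. These were called from the same libraries, so calls were also checked in libraries that had not made them. In 9 fits, 1 WT ND and 1 WT HFD library were held out in turn, and 1526 to 2330 genes were called higher and 1701 to 2556 lower from the others. Of the genes called higher, 91.3% to 99.1% were higher in the held-out HFD library than in the held-out ND library, and of those called lower 93.1% to 99.2% were lower. Over all genes tested, called or not, 74.7% to 83.4% had the same sign in the held-out pair as in the fit. The lowest shares came with ND replicate 1 and HFD replicate 2 held out. Held-out changes were mostly smaller than fitted ones, other than for rises with HFD replicate 1 and ND replicate 2 or 3 held out. The median over the 9 fits was 0.81 against 0.99 for genes called higher and -0.99 against -1.14 for those called lower.

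The KO libraries gave a second, separate set of samples under the same diets. Of the WT calls, 3877 were called in KO in the same direction, 68.3% of the WT calls and 62.6% of the KO calls. Both sets of calls came from 1 fit with a shared filter, scaling and estimate of spread per gene. Separate fits of the WT and the KO libraries gave 3475 shared calls, and the shares below were not redone with them. In KO 22.6% of all tested genes were called higher and 22.1% lower. Of the rises in WT, 69.9% of those under 2-fold, 70.1% of those of 2- to 4-fold and 50.9% of those of at least 4-fold were called higher in KO. Of the falls, the shares were 65.4%, 69.3% and 73.6%. Restricted to genes averaging 10 CPM or more in WT, they were 71.8%, 87.3% and 73.0% for rises (27 of 37 genes at 4-fold or more) and 69.1%, 82.5% and 87.8% for falls (79 of 90). The KO shares of 22.6% and 22.1% cover genes of all abundances, and no such share is given for genes of 10 CPM or more. In WT, 18.1% of genes under 1 CPM and 36.9% from 1 to 10 CPM were called, against 47.2% from 10 to 100 CPM. The differences between these shares were not tested.

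With bins set on WT values, the log2 responses of WT and KO were nearer to each other for small changes than for large ones. Genes that rose under 2-fold in WT had a median log2 fold change of 0.65 in WT and 0.60 in KO, while those that rose at least 4-fold had 2.52 and 1.45. For falls the medians were -0.66 and -0.61 under 2-fold, and -2.50 and -1.84 at 4-fold or more. The bins were set on WT values, which favours WT. With bins set on KO values, rises of at least 4-fold in KO had medians of 2.50 in KO and 1.15 in WT. For falls of that size they were -2.47 and -2.09. Under 2-fold in KO, the medians were 0.67 in KO and 0.50 in WT for rises, and -0.67 and -0.49 for falls. In each case the larger value was in the genotype that set the bins. KO HFD libraries differed among themselves over the WT calls. The median difference from the KO ND mean in log2 CPM was 0.94, 0.45 and 0.68 in KO HFD replicates 1 to 3 for genes that rose in WT, and -1.03, -0.64 and -0.78 for genes that fell.

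A different response in WT and KO was shown for few of the WT calls. The interaction test of edgeR called 167 genes (1.21% of those tested), 87 of them among the 5676 called in WT. Of the 1747 genes called in WT and not in KO, 27 passed it, so for the other genes a WT call without a KO call does not show a difference. The interaction count rested on single libraries, from 11 without WT HFD replicate 3 to 942 without KO HFD replicate 1.

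**Figure D5:**
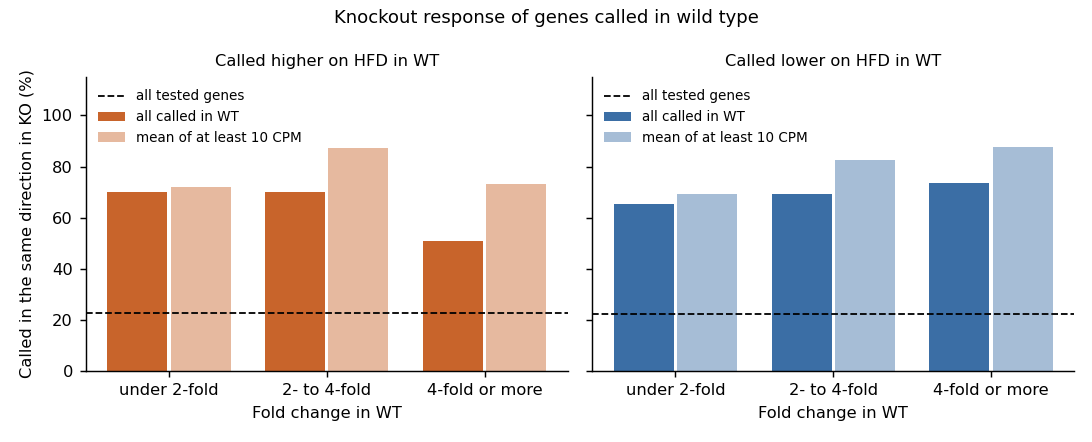
Share (%) of genes called higher (left) or lower (right) on HFD in WT that were called in the same direction in KO, by fold change in WT, for all such genes (full colour) and for those averaging 10 CPM or more in WT (light), with the share of all tested genes called in that direction in KO as a dashed line (22.6% and 22.1%). All bars lie above the line, with the lowest at 50.9% for rises of 4-fold or more. The line covers genes of all abundances and is not a matched share for the light bars.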

How the data were processed

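Liver RNA had been taken from frozen tissue with TRIzol and made into libraries with a NEBNext Ultra RNA kit, per the labels' protocols. Strand use in counting is not stated, so a gene and an antisense partner cannot be told apart. The authors deposited raw read counts per gene for 12 libraries, made with HISAT2 2.0.5, featureCounts 1.5.0-p3 and mm39, per the submitters' processing notes. The IDs belong to a C57BL/6NJ annotation, so the build is uncertain and no coordinates are given. The sources used here do not say how reads shared by near-identical genes were treated.

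Genes were filtered with filterByExpr over the 4 groups. Counts were scaled by TMM and tested with the robust quasi-likelihood F-test of edgeR 4.0.16 (R 4.3.3), as group means over all 12 libraries, with Benjamini-Hochberg adjustment over 13843 genes. The standard error is the log2 fold change over the root of F. Log CPM used a prior count of 2. Single values were compared by exact permutation over 20 regroupings. No WT replicate pair was a duplicate (chi-square per degree of freedom 8.69 to 52.2). KO pairs were not checked. The steps were tested on simulated data with few genes changed, evenly up and down. That simulation held no shift in library composition between diets, so the split under such a shift was not tested. Members, lists and the rule for named genes (largest fold at 10 CPM or more and largest CPM difference in each direction, annotated, called, WT groups not overlapping, any gene at 0 in all KO libraries left out) were chosen with earlier results of these data known. The lists could not be used without symbols. DESeq2 1.42.0 and limma 3.58.1 were alternatives.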

Additional observations from a re-analysis of the deposited data

Results flagged for a closer look

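The diet response differed between WT and KO for 167 genes by the interaction test of edgeR, a count that went from 11 to 942 when 1 of the 12 libraries was left out. Among the genes named by ID it differed for MGP_C57BL6NJ_G0017861, by a fitted log2 value of -6.11 (KO minus WT, SE 1.32, edgeR adjusted p = 0.0401). The ND side of this value rests on 1 count over the WT ND libraries and 1, 0 and 2 counts in KO ND replicates 1 to 3. On HFD the gene was at 27.3 CPM in WT and 0.923 CPM in KO. The gene also rose on HFD in KO (fitted log2 fold change 3.73, edgeR adjusted p = 0.000179). It was picked for its WT fold change, which favours a larger response in WT, and its interaction was not followed with single libraries left out.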

How the results depend on the processing

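The count of 5676 genes called between diets in WT stayed within 1.5 times under all 19 alternatives, from 4266 in a test against a fold change of 1.2 to 6415 on total counts. DESeq2 called 6025, limma-voom 5649, the 6 WT libraries alone 5490 and no filter on low counts 5163. Leaving out 1 WT library gave 4380 to 5319 calls, 2047 to 2530 of them higher and 2327 to 2789 lower. The split moved only on total counts, to 1495 higher and 4920 lower, as that scaling shifts all genes by -0.29.

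Replicate numbers recur in each group, but same-numbered WT libraries did not deviate together (correlations of deviations 0.09, 0.02 and -0.02), and not every library correlated best with its own number. With the replicate number as a block, 6057 genes were called (2855 higher, 3202 lower), or 5537 in the 6 WT libraries alone. The block gave 4200 genes shared with KO and 198 interaction genes.

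Genes called alike in WT and KO numbered 3475 in separate fits and 3142 to 4146 with 1 of 12 libraries left out. The interaction count was 11 (omitting WT HFD replicate 3) to 942 (omitting KO HFD replicate 1), the alternatives for it being chosen after seeing the data, as were those for shares gained, for abundance classes and for genes of at least 10 CPM. Omitting WT ND replicate 2 or 3 gave 57 or 95 genes and WT HFD replicate 2 gave 78. Omitting KO ND replicates 1 to 3 gave 99, 55 and 88, and KO HFD replicates 2 and 3 gave 80 and 18; the cause was not tested. The shares of the top gene, top 10, top 100 and unannotated loci and the number of rows with a count kept their direction under 8 alternatives each. Some of these could not change the outcome: taking out the 10 most abundant genes leaves the row difference at -575, and random thinning leaves shares nearly as they are. No alternative was run for the top 1000 or for the genes holding 50% or 90%. Groups of 3 cannot pass their test, and genes under 1 CPM had the largest errors.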
